A study of Mus musculus with 7 samples.

Results

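The genes described here encode major histocompatibility complex (MHC) class I molecules and the transporter that supplies them with peptides. They were followed in mouse quadriceps, the large thigh muscle, after an adeno-associated virus carrying IGFBP1 was given. They are the rows of the deposited count table with the symbols H2-K1, H2-D1, B2m, H2-Q4, H2-Q6, H2-Q7, H2-T22, H2-T23, Tap1 and Tap2, chosen by name. These are 10 of the 53819 rows, and all 10 were among the 14935 genes that passed the filter on low counts. The 7 libraries came from quadriceps of wild type male C57BL/6J mice, an inbred strain. Every animal received a tail vein injection of 200 µl of AAV8 vector at 1e+12 vector genomes per ml when 8 weeks old, and quadriceps were collected after 54 days. AAV8 is an adeno-associated virus serotype that reaches mainly the liver. The 4 control libraries, called AAV8-Null here, had the AAV8-Alb-Null vector. The 3 AAV8-IGFBP1 libraries had AAV8-Alb-IGFBP1. Alb is the symbol of albumin, a gene of liver cells, and IGFBP1 is a secreted protein that binds insulin-like growth factors. There was no group without a vector. The replicates are numbered in the labels, which do not say whether each was its own mouse. The p-values below therefore measure only the spread among these libraries, which may be technical.

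MHC class I molecules stand on the surface of nearly all nucleated cells and show short peptides from inside the cell to CD8 T cells. Each is a heavy chain bound to a common light chain, beta-2 microglobulin (B2m). Peptides cut by the proteasome enter the endoplasmic reticulum through the transporter associated with antigen processing, a pair of proteins encoded by Tap1 and Tap2. H2-K1 and H2-D1 are the classical heavy chains of C57BL/6 mice. The genes of the Q region (H2-Q4, H2-Q6, H2-Q7) and of the T region (H2-T22, H2-T23) encode nonclassical heavy chains, of which H2-T23 gives Qa-1, a ligand of receptors on natural killer cells. Healthy muscle fibres are known for low class I levels, and interferons raise the whole pathway in most cells.

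The heavy chain genes are close relatives, and their upstream sequences show it. Promoter windows from 250 bases before to 50 bases after the gene start were found in RefSeq (GRCm38.p6) for 9 of the 10 genes, all except Tap2. The stretches below run 5′ to 3′ on the gene's strand and are shown because 5 heavy chain genes share 2 neighbouring elements there. In each line the first capital run is a match to the kappaB consensus, the site of NF-kappaB factors. The second capital run is a match, on the opposite strand, to GAANNGAAA, the core of the site that interferon regulatory factors bind. H2-K1 lies at chr17:34000333-34000517 (minus strand), H2-D1 at chr17:35262864-35263047 (plus), H2-Q4 at chr17:35379400-35379568 (plus), H2-Q6 at chr17:35424618-35424801 (plus) and H2-Q7 at chr17:35438963-35439145 (plus), all in GRCm38.p6 coordinates.
H2-K1: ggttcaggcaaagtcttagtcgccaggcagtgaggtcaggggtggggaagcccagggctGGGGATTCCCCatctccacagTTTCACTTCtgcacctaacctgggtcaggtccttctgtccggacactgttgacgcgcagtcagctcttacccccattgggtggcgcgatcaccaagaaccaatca
H2-D1: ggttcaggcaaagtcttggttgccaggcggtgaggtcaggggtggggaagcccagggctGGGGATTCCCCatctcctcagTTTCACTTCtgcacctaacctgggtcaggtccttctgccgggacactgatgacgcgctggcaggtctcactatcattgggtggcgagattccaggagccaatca
H2-Q4: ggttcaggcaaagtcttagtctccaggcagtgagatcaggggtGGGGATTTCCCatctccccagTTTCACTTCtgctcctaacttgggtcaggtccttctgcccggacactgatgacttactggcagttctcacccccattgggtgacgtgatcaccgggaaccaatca
H2-Q6: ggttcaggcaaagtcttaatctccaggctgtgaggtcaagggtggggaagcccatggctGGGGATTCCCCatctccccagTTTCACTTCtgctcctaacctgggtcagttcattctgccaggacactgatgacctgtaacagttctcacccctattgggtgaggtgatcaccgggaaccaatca
H2-Q7: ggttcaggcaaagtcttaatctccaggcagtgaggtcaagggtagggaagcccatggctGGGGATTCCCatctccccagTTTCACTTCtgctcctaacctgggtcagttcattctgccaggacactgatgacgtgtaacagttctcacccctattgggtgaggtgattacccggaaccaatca

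The stretches of H2-Q6 and H2-Q7 were the most alike, with 178 of 184 aligned columns identical (96.7%). H2-K1 and H2-D1 were identical in 89.7% of columns and the other 8 pairs in 78.9% to 86.5%. GAANNGAAA, searched on both strands over the full windows, was found in 5 of 9 members (H2-K1, H2-D1, H2-Q4, H2-Q6 and H2-Q7), against 7.52% of the 32851 promoter windows in the table. B2m, H2-T22 and H2-T23 instead held a GAAA repeat with 2 bases between the copies, a spacing searched after the sequences were seen (3.44% of all windows). The kappaB consensus was found in 7 of 9 members, all but H2-T23 and Tap1 (4.51% of all windows). CCAAT, the Y box core, was found in 9 of 9 (37.4% of all windows) and TGACG, a part of the cyclic AMP response element, in 7 of 9, all but H2-Q6 and H2-T23 (20.8%). TTCNNNGAA, the core bound by STAT factors, was found in 0 of 9 (8.3%). These are letter matches in a window and do not show that a factor was bound.

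The relatedness also limits the counting. In GENCODE M21 protein-coding transcripts, 50.3% of the 31-base stretches of H2-Q6 also occurred in another gene, most often H2-Q4 (24.6%) and H2-Q7 (18.4%). For H2-Q7 the share was 48.1%, most often with H2-Q5 (29.1%). It was 43.4% for H2-Q4, 62.1% for H2-T22 (55% with H2-T10) and 48.4% for H2-T23 (25.5% with H2-T-ps). The other genes could be of any type, not only protein-coding. The classical genes shared less, 20.3% for H2-K1 and 27.6% for H2-D1. For H2-T23 and H2-D1 the sharing involved 655 and 704 other genes, so not all of it was with heavy chain relatives. B2m shared 0%, Tap1 1.48% and Tap2 1.44%. The division of reads among the heavy chain rows, above all those of the Q and T regions, is therefore uncertain, while B2m, Tap1 and Tap2 are nearly free of that limit.

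The library totals were 38947453 to 51210360 estimated counts, with no difference between groups larger than the spread among libraries (two-sided exact permutation p = 0.714 over 35 splits, smallest possible p 0.0286). A count of 0 allows up to 3 counts, or 0.0580 to 0.0785 CPM in these libraries, which covers counting error only. CPM values are counts relative to a library total scaled by edgeR's TMM factor. Igfbp1 was at 202, 1425 and 142 counts in AAV8-IGFBP1 replicates 1, 2 and 3, at 8 counts in AAV8-Null replicate 4 and at 0 in the other 3 AAV8-Null libraries. The muscle fibre genes Acta1 and Ckm were the defining muscle markers checked, and the lowest level of Ckm in any library was 16732 CPM. For Igfbp1, H2-K1, H2-D1, B2m, Tap1 and Tap2, AAV8-IGFBP1 replicate 2 stands far above the other libraries. It was less apart for H2-Q6, at 9.84 CPM against 7.77 and 7.06 CPM in AAV8-IGFBP1 replicates 1 and 3. The fold changes of the members and the medians of the lists that rest on AAV8-IGFBP1 replicate 2 are also given without that library.

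Every one of the 10 genes was highest in AAV8-IGFBP1 replicate 2, and 1 of the 10, H2-Q6, rose past the test. The share of all genes that were highest in that library was not counted. Together they took 0.0284%, 0.0238%, 0.0224% and 0.0218% of the counts in AAV8-Null replicates 1 to 4, and 0.0313%, 0.0615% and 0.0254% in AAV8-IGFBP1 replicates 1 to 3. All 10 fitted log2 fold changes (AAV8-IGFBP1 over AAV8-Null) were above 0, as were 49.9% of all genes tested. Their median was 0.69, and that of all genes was -0.00066. Without AAV8-IGFBP1 replicate 2 the members' median was 0.27. The members are measured in the same 7 libraries and move together, so they do not count as 10 separate observations.

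By edgeR's quasi-likelihood test with Benjamini-Hochberg adjustment over all genes, 1 of 10 members was higher in AAV8-IGFBP1 and 0 were lower. Over all genes 54 of 14935 were higher (0.362%) and 83 changed in either direction (0.556%). At an unadjusted edgeR p under 0.05 there were 5 of 10 members, against 1889 of the 14935 genes tested. In 5 of 10 members (H2-Q4, H2-Q6, H2-Q7, H2-T22 and H2-T23) every AAV8-IGFBP1 library was above every AAV8-Null library, a pattern seen in 946 genes (6.33%). The DESeq2 Wald test called the same 5 members higher, against 213 of its 14056 genes with an adjusted p (1.52%).

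**Figure D1:**
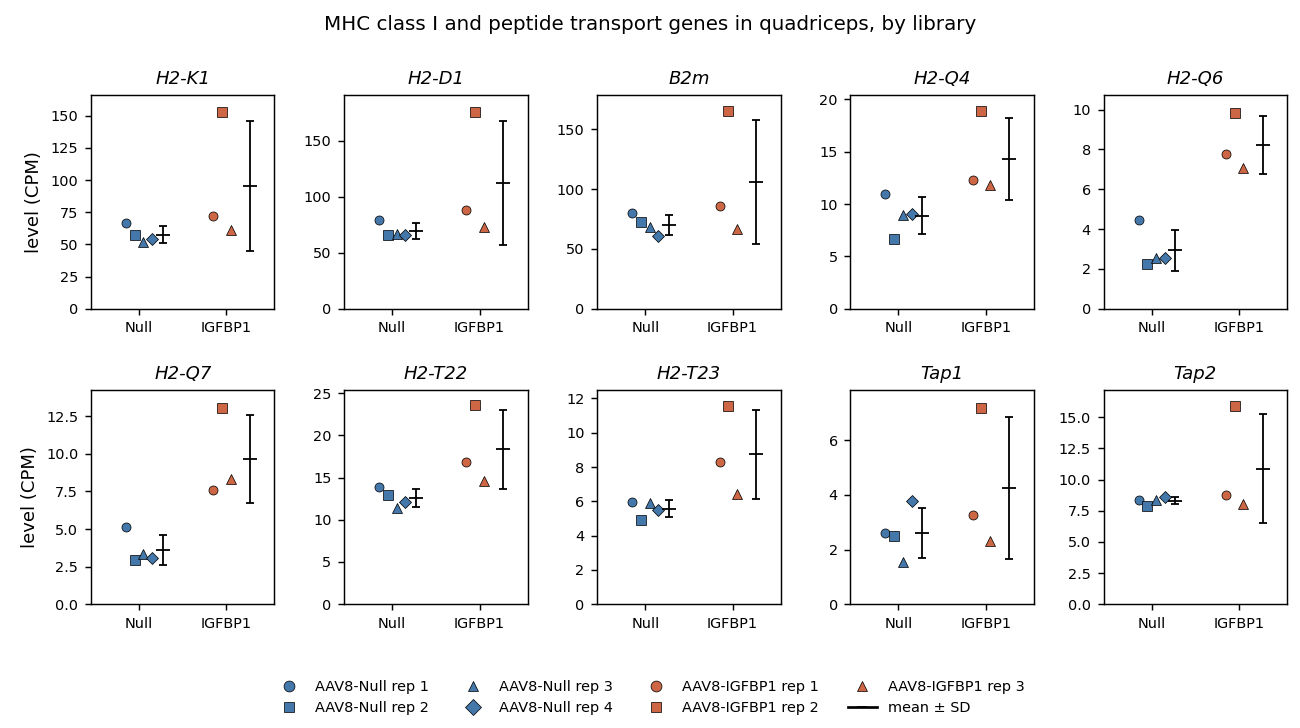
Level of each of the 10 genes in each library (vertical axes, CPM, starting at 0), with AAV8-Null (n = 4) in blue and AAV8-IGFBP1 (n = 3) in orange. Marker shape gives the replicate number, which the labels do not describe as a pairing across groups, and the bar gives mean ± SD. AAV8-IGFBP1 replicate 2 (orange square) is the highest point in all 10 panels, and the groups do not overlap in the panels of H2-Q4, H2-Q6, H2-Q7, H2-T22 and H2-T23.

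In the Q region, H2-Q6 and H2-Q7 had the largest fold changes of the 10 members. H2-Q6, which with H2-Q7 encodes heavy chains of the Qa-2 antigen, was at 4.47, 2.22, 2.54 and 2.53 CPM in AAV8-Null replicates 1 to 4 and at 7.77, 9.84 and 7.06 CPM in AAV8-IGFBP1 replicates 1 to 3. The groups did not overlap, and the lowest AAV8-IGFBP1 library was well above AAV8-Null replicate 1, the highest control. The means were 2.94 ± 1.03 CPM (SD, n = 4) and 8.22 ± 1.44 CPM (SD, n = 3), a fitted 2.79-fold rise (log2 fold change 1.48, SE 0.24, edgeR adjusted p = 0.0458). Its fold change was at percentile 99.5 of all genes. The call was close to the threshold: it was lost without any 1 of 6 libraries (adjusted p 0.0782 to 0.141) and kept without AAV8-Null replicate 1.

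H2-Q7 was at 5.11, 2.96, 3.32 and 3.09 CPM in AAV8-Null and at 7.62, 13.03 and 8.32 CPM in AAV8-IGFBP1. Here too every AAV8-IGFBP1 library exceeded every control. The log2 fold change was 1.41 (SE 0.25), and the edgeR adjusted p of 0.0635 missed the threshold, while DESeq2 gave an adjusted p of 2.75e-06. Because reads of H2-Q6 and H2-Q7 can be exchanged in counting, both rows were also summed before the fit. The sum leaves out H2-Q4, with which H2-Q6 shared more 31-base stretches (24.6%) than with H2-Q7 (18.4%). It also leaves out H2-Q5, with which H2-Q7 shared more (29.1%) than with H2-Q6 (23.5%). Exchange with those rows is therefore not removed. The sum was 9.58, 5.18, 5.86 and 5.62 CPM in AAV8-Null and 15.4, 22.9 and 15.4 CPM in AAV8-IGFBP1. AAV8-IGFBP1 replicates 1 and 3 had nearly the same sum, so the difference between the groups did not come from replicate 2 alone. The log2 fold change of the sum was 1.44 (SE 0.25), which missed the threshold (edgeR adjusted p = 0.0707), and it was 1.23 without AAV8-IGFBP1 replicate 2.

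H2-Q4, the heavy chain of Qb-1, was at 10.9, 6.63, 8.95 and 9.03 CPM in AAV8-Null and at 12.3, 18.9 and 11.9 CPM in AAV8-IGFBP1. The groups were apart, but AAV8-IGFBP1 replicate 3 lay close to AAV8-Null replicate 1. Its log2 fold change was 0.69 (SE 0.21, edgeR adjusted p = 0.249, DESeq2 adjusted p = 0.0318), and 0.44 without AAV8-IGFBP1 replicate 2.

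In the T region both members had groups that did not overlap, with smaller differences. H2-T22, a heavy chain that gamma-delta T cells can recognise, was at 13.9, 12.99, 11.3 and 12.1 CPM in AAV8-Null and at 16.9, 23.5 and 14.6 CPM in AAV8-IGFBP1. Its log2 fold change was 0.54 (SE 0.15, edgeR adjusted p = 0.199). H2-T23 was at 5.98, 4.91, 5.89 and 5.52 CPM in AAV8-Null and at 8.27, 11.6 and 6.42 CPM in AAV8-IGFBP1. For both genes AAV8-IGFBP1 replicate 3 sat just above the highest control. The log2 fold change of H2-T23 was 0.65 (SE 0.18, edgeR adjusted p = 0.179). DESeq2 gave adjusted p-values of 0.0381 for H2-T22 and 0.0388 for H2-T23. Without AAV8-IGFBP1 replicate 2 the log2 fold changes were 0.32 and 0.40.

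For the classical heavy chains and the light chain, the difference of the means came mostly from 1 library. H2-K1 was at 66.5, 57.6, 51.8 and 54.5 CPM in AAV8-Null and at 72.2, 153 and 60.9 CPM in AAV8-IGFBP1. H2-D1 was at 79.6, 65.7, 66.5 and 65.8 CPM in AAV8-Null and at 87.9, 176 and 72.9 CPM in AAV8-IGFBP1. B2m was at 80.2, 72.3, 68.0 and 60.5 CPM in AAV8-Null and at 85.9, 165 and 67.0 CPM in AAV8-IGFBP1. In all 3 genes AAV8-IGFBP1 replicate 1 was just above the highest control, replicate 3 was inside the control range and replicate 2 was far above both. The log2 fold changes were 0.73 (SE 0.33) for H2-K1, 0.69 (SE 0.31) for H2-D1 and 0.59 (SE 0.32) for B2m, with edgeR adjusted p-values of 0.448, 0.439 and 0.517. Without AAV8-IGFBP1 replicate 2 they were 0.21, 0.21 and 0.12. The 19 rows with class I heavy chain symbols and any counts were summed because reads may move among them. They include the pseudogene rows H2-M10.5-ps1 and H2-M6-ps. The sum came to a log2 fold change of 0.72 (SE 0.30) in edgeR, with an adjusted p of 0.395. H2-K1 plus H2-D1 made up most of it, with 118 to 146 CPM in AAV8-Null against 157 to 200 CPM for the whole sum.

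The transporter genes overlapped between the groups. Tap1 was at 2.60, 2.49, 1.54 and 3.80 CPM in AAV8-Null and at 3.28, 7.18 and 2.30 CPM in AAV8-IGFBP1. It was the only member for which AAV8-IGFBP1 replicate 1 was not above all controls, since AAV8-Null replicate 4 was higher. Tap2 was at 8.36, 7.88, 8.38 and 8.59 CPM in AAV8-Null, the tightest control group of the 10 genes relative to its mean, and at 8.75, 15.9 and 8.01 CPM in AAV8-IGFBP1. The log2 fold changes were 0.70 (SE 0.44, edgeR adjusted p = 0.576) for Tap1 and 0.39 (SE 0.22, edgeR adjusted p = 0.539) for Tap2. Without AAV8-IGFBP1 replicate 2 they were 0.10 and 0.01.

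**Figure D2:**
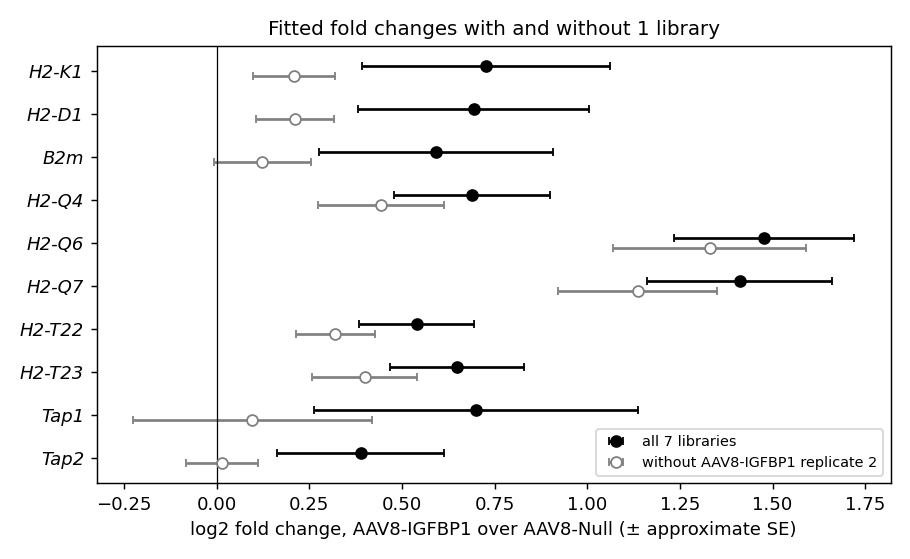
Fitted log2 fold change of each gene (horizontal axis, AAV8-IGFBP1 over AAV8-Null, with approximate SE as bars) from all 7 libraries (filled) and without AAV8-IGFBP1 replicate 2 (open). H2-Q6 moves from 1.48 to 1.33 and H2-Q7 from 1.41 to 1.14, while H2-K1 moves from 0.73 to 0.21 and Tap2 from 0.39 to 0.01.

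Seen by library, the members were not raised evenly within AAV8-IGFBP1. AAV8-IGFBP1 replicate 1 was above all controls for 9 of 10 members, replicate 2 for 10 and replicate 3 for 5. The share of all genes above all controls in each single library was not counted, so these counts have no background beside them. The mean member level, as log2 CPM centred on each gene's mean over the 7 libraries, was -0.07, -0.43, -0.43 and -0.32 in AAV8-Null replicates 1 to 4 and 0.23, 1.00 and 0.02 in AAV8-IGFBP1 replicates 1 to 3. AAV8-Null replicate 1 was thus the control nearest to the AAV8-IGFBP1 libraries. The lowest library was AAV8-Null replicate 2 for 6 members, replicate 3 for 3 and replicate 4 for 1. Over the 7 libraries the 45 pairs of members had a median Pearson r of 0.87 on log2 CPM. The pair H2-K1 and H2-D1 was highest at 0.996 and H2-Q6 with Tap1 lowest at 0.56. These correlations share the same libraries and scaling, and replicate 2 weighs heavily in them.

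Ratios within a library do not depend on scaling between libraries. Relative to B2m, the groups were apart for H2-Q6 and H2-Q7 and overlapped for the other members. The ratios were added after the data had been seen, and 13 were computed. They reuse the counts behind the fold changes and are not separate support for them. Per 100 B2m counts, H2-Q6 had 5.57, 3.07, 3.74 and 4.19 counts in AAV8-Null and 9.05, 5.97 and 10.5 in AAV8-IGFBP1, not adjusted for gene length. H2-Q7 had 6.37, 4.09, 4.89 and 5.11 in AAV8-Null and 8.87, 7.90 and 12.4 in AAV8-IGFBP1. Both ratios were higher in all 3 AAV8-IGFBP1 libraries than in any control, and AAV8-IGFBP1 replicate 2, highest in CPM, had the lowest ratio of its group. Per 100 counts of H2-K1 plus H2-D1, the AAV8-Null mean of H2-Q6 plus H2-Q7 was 5.10 ± 1.02 counts (SD, n = 4) and the AAV8-IGFBP1 mean was 9.35 ± 2.28 counts (SD, n = 3). These 3 ratios each had an exact permutation p of 0.0286, the smallest that 4 against 3 libraries can give, and 0.124 after Benjamini-Hochberg adjustment over the 13 ratios.

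The other 7 genes kept overlapping ratios to B2m. H2-K1 had 76.2 to 90.1 counts per 100 B2m counts in AAV8-Null and 84.1 to 92.8 in AAV8-IGFBP1 (exact permutation p = 0.143). The exact permutation p-values were 0.2 for H2-D1, 0.457 for H2-Q4, 0.8 for H2-T22, 0.457 for H2-T23, 0.971 for Tap1 and 0.314 for Tap2. Among relatives, H2-D1 per 100 H2-K1 counts was 114 to 128 in AAV8-Null and 115 to 122 in AAV8-IGFBP1 (exact permutation p = 0.686). H2-Q6 made up 42.9% to 46.7% of the H2-Q6 plus H2-Q7 counts in AAV8-Null and 43.0% to 50.5% in AAV8-IGFBP1 (exact permutation p = 0.429). With groups of this size a p above the threshold does not show that these ratios were equal.

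**Figure D3:**
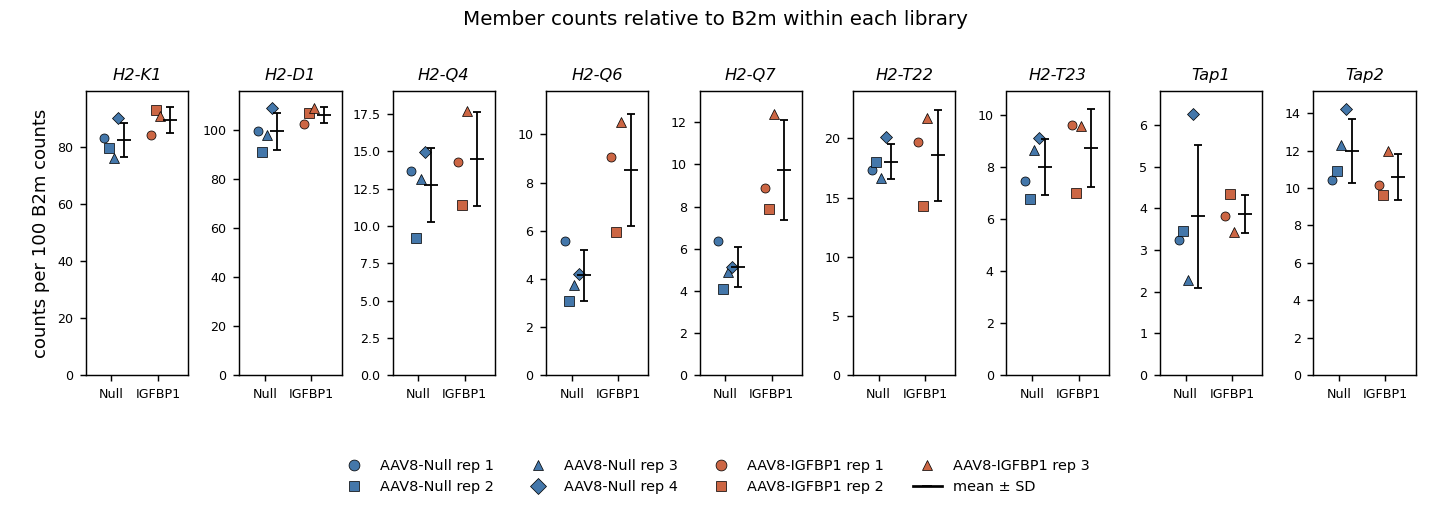
Counts of each gene per 100 B2m counts in the same library (vertical axes start at 0), for AAV8-Null (n = 4, blue) and AAV8-IGFBP1 (n = 3, orange), with mean ± SD. The groups are apart in the panels of H2-Q6 and H2-Q7 and overlap in the other 7.

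The rest of the class I pathway was read from lists of other heavy chains, loading factors, proteasome subunits, transcription factors and interferon receptors, and 1 gene in these lists rose past the test. That gene was Ifngr2, which encodes the signalling chain of the interferon gamma receptor. It was at 62.7, 66.4, 63.4 and 67.0 CPM in AAV8-Null and at 106.5, 96.5 and 100.7 CPM in AAV8-IGFBP1. Unlike the class I genes it was no higher in replicate 2 than in the other AAV8-IGFBP1 libraries. Its log2 fold change was 0.64 (SE 0.06, edgeR adjusted p = 0.00618), and it also passed without AAV8-IGFBP1 replicate 2. Of the 7 tested receptors and kinases of that list, 6 were above 0 (median 0.12, and 5 of 7 with a median of 0.09 without AAV8-IGFBP1 replicate 2). Among them were Ifnar1 (0.13) and Ifngr1 (0.18), with edgeR adjusted p-values of 0.574 and 0.615. The ligand genes of the list had too few counts to be tested. Ifng reached at most 0.0487 CPM in any library, and Ifnb1 was at 0 in every library.

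Among 16 transcription factors that act on class I promoters, 0 passed the edgeR test (3 named here by lowest p), and 11 were above 0 (median 0.13, and 0.03 without AAV8-IGFBP1 replicate 2). Rfx5, a subunit of the complex that binds the X box of MHC promoters, was at 5.36, 6.76, 6.28 and 5.94 CPM in AAV8-Null and at 8.42, 9.02 and 8.77 CPM in AAV8-IGFBP1. The groups were apart and the AAV8-IGFBP1 libraries lay close together (log2 fold change 0.52, SE 0.10, edgeR adjusted p = 0.0635, DESeq2 adjusted p = 0.00294). For its partner Rfxank the log2 fold change was 0.28 (edgeR adjusted p = 0.340). Nlrc5, the transactivator of class I genes, was at 1.63, 0.79, 1.13 and 1.44 CPM in AAV8-Null and at 1.91, 4.28 and 1.44 CPM in AAV8-IGFBP1. It followed the classical genes, with replicate 2 far above the rest and replicate 3 inside the control range (log2 fold change 1.02, SE 0.40, edgeR adjusted p = 0.347).

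Of 6 immunoproteasome and PA28 genes, 0 passed and 5 were above 0 (median 0.07). Psmb8, an interferon-inducible catalytic subunit, was at 3.60, 3.44, 3.01 and 3.43 CPM in AAV8-Null and at 4.54, 9.53 and 3.21 CPM in AAV8-IGFBP1 (log2 fold change 0.77, edgeR adjusted p = 0.403). Psmb9, which lies beside Tap1 in the MHC, stood at a log2 fold change of 0.86 (adjusted p = 0.446), and the activator subunit Psme1 at -0.10 (0.733). Without AAV8-IGFBP1 replicate 2, 3 of the 6 were above 0 (median 0.02). Of 11 loading and trimming genes, 0 passed and 8 were above 0 (median 0.04), but without that library 4 of 11 were above 0 and the median was -0.05. The peptidase Erap1 had a log2 fold change of 0.17 with groups apart (edgeR adjusted p = 0.476), and the quality control genes Uggt1 and Derl1 had 0.11 and 0.10.

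Of 9 tested other class I and class I-like heavy chains, 0 passed and 7 were above 0 (median 0.26, but 4 of 9 with a median of -0.10 without AAV8-IGFBP1 replicate 2). H2-T24, another T region gene, was at 0.81 to 1.39 CPM in AAV8-Null and at 1.62 to 1.79 CPM in AAV8-IGFBP1 (log2 fold change 0.64, edgeR adjusted p = 0.291). H2-T10, the near copy of H2-T22, was at 0.131 to 0.365 CPM in AAV8-Null and at 0.376 to 0.508 CPM in AAV8-IGFBP1 (0.97, edgeR adjusted p = 0.355). In both genes the groups were apart, as in the 2 T region members. Fcgrt, the neonatal Fc receptor, which also pairs with B2m, stood at a log2 fold change of 0.26 (adjusted p = 0.356). By DESeq2, Ifngr2 and Rfx5 were the genes of these 5 lists called higher.

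Likeness to the mean member level was sought among 10131 tested genes outside the members whose log2 CPM averaged 1 or more. Genes with predicted, clone or locus names as symbols were left out of these candidates. The genes most like the members in profile were picked by Pearson r over the 7 libraries. They were Mfng, a glycosyltransferase that modifies Notch receptors (0.98), Iigp1, an interferon-induced GTPase (0.98), Gpx4, which reduces lipid peroxides (0.97), Ucp1, the uncoupling protein of brown adipocytes (0.96), Gpat3, an enzyme of triglyceride synthesis (0.96), and the GTPase Gpn3 (0.96). Iigp1 was at 4.11 to 6.02 CPM in AAV8-Null and at 7.58, 25.4 and 6.66 CPM in AAV8-IGFBP1. Ucp1 was at 2.02 to 10.4 CPM in AAV8-Null and at 12.4, 123 and 9.98 CPM in AAV8-IGFBP1, with AAV8-Null replicate 1 the highest control, as for 8 of the members. On deviations from the group means the closest were Adcy3, an adenylate cyclase, Ifit3, an interferon-induced gene, and Slc18b1, a vesicular transporter, each at 0.99. These values are over 7 points that share libraries and scaling, and AAV8-IGFBP1 replicate 2 was the highest point of all 9 genes.

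Class I genes are expressed by most cell types, so a bulk level mixes fibres with the other cells of the muscle, and a different number of cells of a type and a different amount of RNA per cell cannot be told apart. Adipocyte markers had a summed level of 1958 to 3025 CPM in AAV8-Null and of 3062, 5975 and 2099 CPM in AAV8-IGFBP1 replicates 1 to 3, again highest in replicate 2. Much of that sum came from Car3 and Scd1, which differed in pattern. Car3 was at 644 to 897 CPM in AAV8-Null and at 1702, 1434 and 899 CPM in AAV8-IGFBP1, highest in replicate 1. Scd1 was at 345 to 1183 CPM in AAV8-Null and at 284, 2023 and 239 CPM in AAV8-IGFBP1, with replicates 1 and 3 below every control. Of the 14 adipocyte markers 12 had a log2 fold change above 0 (median 0.79), 0 passed the edgeR test, and the median was -0.06 without replicate 2. MHC class II genes, which mark antigen-presenting cells, summed to 69.0 to 113 CPM in AAV8-Null and to 106, 188 and 80.4 CPM in AAV8-IGFBP1, and 7 of 7 tested were above 0 (median 0.50) with 0 passing. Without replicate 2 it was 6 of 7, with a median of 0.13.

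Markers of CD8 T and natural killer cells, the cells that read class I molecules, were close to the floor. Their 16 genes summed to 31, 25, 17 and 17 counts in AAV8-Null and to 36, 121 and 45 counts in AAV8-IGFBP1. The highest level of any of them was 0.653 CPM, for the kinase gene Lck in AAV8-IGFBP1 replicate 2, and Cd8a was at 0 counts in 3 AAV8-Null libraries. In CPM the sum was 0.414 to 0.616 in AAV8-Null and 0.781, 2.93 and 1.00 in AAV8-IGFBP1 (exact permutation p = 0.0286, or 0.286 adjusted over the 10 cell type lists). All 3 AAV8-IGFBP1 libraries were above all controls, and 0 of the 16 genes had enough counts to be tested singly. Macrophage and general leukocyte markers overlapped, with sums of 90.4 to 202 CPM in AAV8-Null and 97.4 to 164 CPM in AAV8-IGFBP1 (exact permutation p = 0.943). Dendritic and B cell markers summed to 89.7 to 152 CPM and 127 to 272 CPM (p = 0.0857, exact permutation). Most of it came from the immunoglobulin gene Ighm (72.6 to 135 CPM and 105 to 256 CPM). Of the 6 tested genes of that list 3 were above 0 and 3 below, with 0 passing. Besides Ighm, those above 0 were the dendritic cell markers Itgax and Batf3, both low but with groups apart. Itgax was at 0.0993 to 0.393 CPM in AAV8-Null and at 0.412 to 1.38 CPM in AAV8-IGFBP1. Batf3 was at 0.0243 to 0.236 CPM and 0.239 to 0.459 CPM. Their log2 fold changes were 1.69 and 1.598 (edgeR adjusted p = 0.249 and 0.307). Endothelial markers, from cells that carry much class I in muscle, summed to 328 to 395 CPM in AAV8-Null and 328 to 349 CPM in AAV8-IGFBP1, and muscle fibre markers to 167588 to 190044 CPM and 184340 to 201736 CPM. Fibroblast markers moved the other way, with 0 of 12 above 0 (median -0.53, 1 lower by edgeR) and sums of 1215 to 1763 CPM in AAV8-Null and 737 to 1232 CPM in AAV8-IGFBP1. Tenocyte sums were 178 to 385 CPM and 82.5 to 306 CPM, and erythroid sums 204 to 291 CPM and 195 to 292 CPM. Whether any of these cell types shaped the class I levels was not tested.

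**Figure D4:**
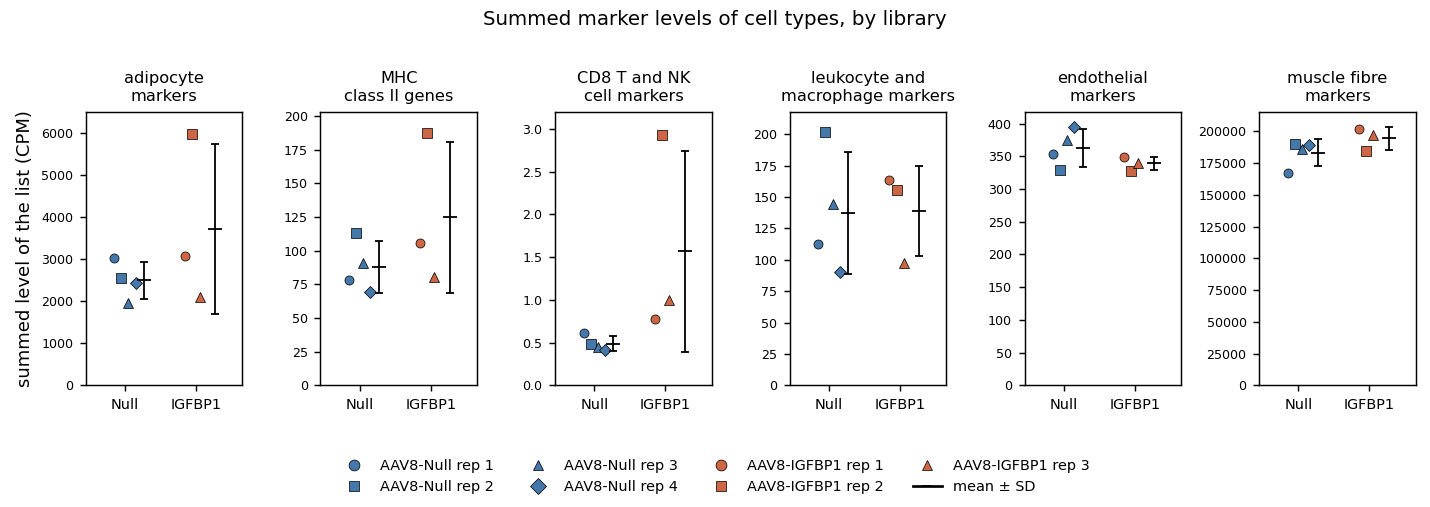
Summed level of 6 marker lists (vertical axes, CPM, starting at 0) in each library, for AAV8-Null (n = 4, blue) and AAV8-IGFBP1 (n = 3, orange), with mean ± SD. AAV8-IGFBP1 replicate 2 is the highest library for adipocyte markers (5975 CPM), MHC class II genes (188 CPM) and CD8 T and natural killer cell markers (2.93 CPM), but not for macrophage, endothelial or fibre markers.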

How the data were processed

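Gene expression was measured by RNA sequencing in 7 quadriceps libraries, grouped by the treatment and title in the labels. Total RNA came from an RNeasy Mini Kit and the libraries from a Universal Plus mRNA-Seq kit, per the labels' protocols. A single table with 53819 rows of estimated counts per gene symbol was deposited by the authors, made from the reads with the tools below. The tools listed, without roles, per the submitters' processing notes were Salmon 1.10.1, STAR 2.7.9a, Trim Galore 0.6.7, R 4.2.2 and cutadapt 3.4, on build GRCm39. The annotation and strand setting are not given in the sources used here. In each library 5617 to 6277 values were not whole (tolerance 1e-06), and all were rounded.

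The members, the lists and the naming rule were chosen with earlier results of these data known. Genes were tested with edgeR 4.0.16 in R 4.3.3, using filterByExpr defaults (minimum count 10, minimum total 15), TMM scaling, estimateDisp, glmQLFit with robust TRUE and glmQLFTest with group as the only term. P-values were adjusted by Benjamini-Hochberg over 14935 genes, with a threshold of 0.05. A prior count of 2 entered log2 CPM, and standard errors are approximate, from the fold change and the F statistic. Single values were compared by an exact two-sided permutation test over 35 splits. The text names all 10 members, genes of the pathway lists past the test and up to 3 per list with the lowest p, the defining tissue markers, and the 6 and 3 genes nearest in profile. On 5 sets of counts simulated for this comparison (median 14690 genes tested, 200 changed), the share of changed genes recovered was 43.2% for a fold of 1.5, 69.6% for 2, 84.8% for 3 and 87.6% for 4, while 7.16% of the calls fell on unchanged genes. Libraries of a group differed by more than sampling noise (chi-square over degrees of freedom 20.4 to 54.6), and each was counted once. The alternatives were DESeq2 1.42.0 (Wald test, and its size factors in the edgeR fit), limma-voom (limma 3.58.1), upper-quartile scaling, robust FALSE, a stricter count filter or none, the replicate number as a block, each library left out, and sums of related rows. Promoter sequences were read from RefSeq (GRCm38.p6), another build than that of the counts.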

Additional observations from a re-analysis of the deposited data

Results flagged for a closer look

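Within AAV8-Null, replicate 1 lay far above the other 3 libraries for 3 of the 11 values examined by Dixon's ratio, the gap to the nearest library over the whole range, which passed Dixon's 95% critical value for 4 libraries. The ratio was 0.944 for H2-D1, 0.859 for H2-Q6 and 0.844 for H2-Q6 plus H2-Q7. H2-D1 was at 79.6 CPM there and at 65.7 to 66.5 CPM in the other 3 controls, and H2-Q6 at 4.47 CPM and at 2.22 to 2.54 CPM. Chance flags about 1 in 20 such groups, and these values are not independent, since the third contains the second. AAV8-Null replicate 1 was also the highest control for 8 of the 10 members. It is the library whose removal raised the number of members past the test.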

How the results depend on the processing

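No log2 fold change of a member changed sign under any alternative run. The number of members past the test was 1; it was 5 by DESeq2, 0 with the replicate block, 2 without AAV8-Null replicate 1 (H2-Q6 and H2-Q7) and 0 without each of the other 6 libraries in turn, so it ranged from 0 to 2 when 1 library was left out. The summed H2-Q6 and H2-Q7 had a log2 fold change of 1.44 and an adjusted p of 0.0707; it passed by DESeq2 (1.45, adjusted p 8.67e-08), by limma-voom (1.45, 0.0423), with robust FALSE in edgeR (1.44, 0.0448) and without AAV8-Null replicate 1 (edgeR 0.0206), and ranged from 1.23 to 1.69 when 1 library was left out. Same-numbered libraries did not deviate together (r -0.10, 0.07 and -0.06), but so few values cannot settle whether the numbers pair libraries. With the replicate block the edgeR adjusted p was 0.192 for H2-Q6 (1.46) and 0.291 for the sum (1.40). The number of all genes past the test was 83 and ranged from 19 (with the block, and without AAV8-Null replicate 1) to 447 (DESeq2), with 306 without a filter, and 52, 28 and 23 without AAV8-Null replicate 3 and AAV8-IGFBP1 replicates 1 and 2. The members' median log2 fold change was 0.27 without AAV8-IGFBP1 replicate 2 and 0.64 to 0.88 without any other library. The cause of these differences was not tested, beyond the fewer samples in each left-out fit. Depth limits Tap1, with 59 to 297 counts, and H2-Q6, with 97 to 407, more than the other members.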
